A study of Sorghum bicolor with 34 samples.

Results

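CG sites listed on both strands are the CG dinucleotides of the sorghum BTx623 root genome whose cytosines the study lists as differentially methylated on the plus strand and on the minus strand alike. Each was found as a plus-strand row of the CG list with a minus-strand row of the same chromosome 1 base further on, and such a pair is named a dyad here. There were 10586 dyads, which took up 21172 of the 104262 cytosines in the CG list (20.3%). The other 83090 cytosines were listed on one strand only and are named one-strand rows, so that dyads made up 11.3% of the 93676 CG sites with at least 1 listed cytosine.

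The list comes from bisulfite sequencing of BTx623 roots grown at limiting phosphorus (LP, 2.5 µM phosphate, 2 libraries) and at sufficient phosphorus (SP, 45 µM phosphate, 2 libraries), harvested at day 10 with 10 plants in each replicate. The labels name the tissue as the whole root, whereas the methods name the apices of primary and lateral roots. The list was made from all 4 libraries together and gives a position and a strand for each cytosine, so there is no value for a single library, no replicate spread and no known read depth. The counts and shares below therefore describe 1 list, no test was made on them, and the 95% Wilson intervals printed with some shares cover counting error only, since neighbouring cytosines share reads and are not independent.

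A CG site reads the same on both strands, and in plants the maintenance methyltransferase MET1 copies its methyl mark to the new strand after replication, which is why CG methylation is described as symmetric. Cytosines in the CHG context (H is A, C or T) are symmetric as well and are kept by chromomethylases, while CHH sites have no matching cytosine on the other strand. In bisulfite sequencing each strand is read from its own fragments, so the cytosines of a CG site are measured separately and a site enters a list by cytosine once, or as a pair. CG methylation without CHG methylation is common along the bodies of plant genes, whereas transposons and repeats usually carry both.

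The spacing of rows on opposite strands follows first from the sequence. Every plus-strand CG cytosine has a minus-strand CG cytosine 1 base further on, whereas a match at any other spacing needs a second CG site at just that distance, so these counts are not a background for one another. A minus-strand row lay 1 base after a plus-strand row 10586 times, which is the number of dyads by definition, and a median of 120 times (81 to 222) at 98 other spacings up to 50 bases to either side. The most frequent other spacing was -2 bases, with 222 matches. Spacings of 0 and 2 bases never occurred, and same-strand rows were never 1 base apart, which a list of CG cytosines requires. A listed partner was present for 20.4% of the 51986 plus-strand rows (20.02% to 20.71%) and for 20.3% of the 52276 minus-strand rows (19.91% to 20.60%). Each dyad counts once on each strand, so these shares can differ only through the number of rows listed on each strand. Most listed cytosines, 83090 of 104262, had no listed partner.

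**Figure D1:**
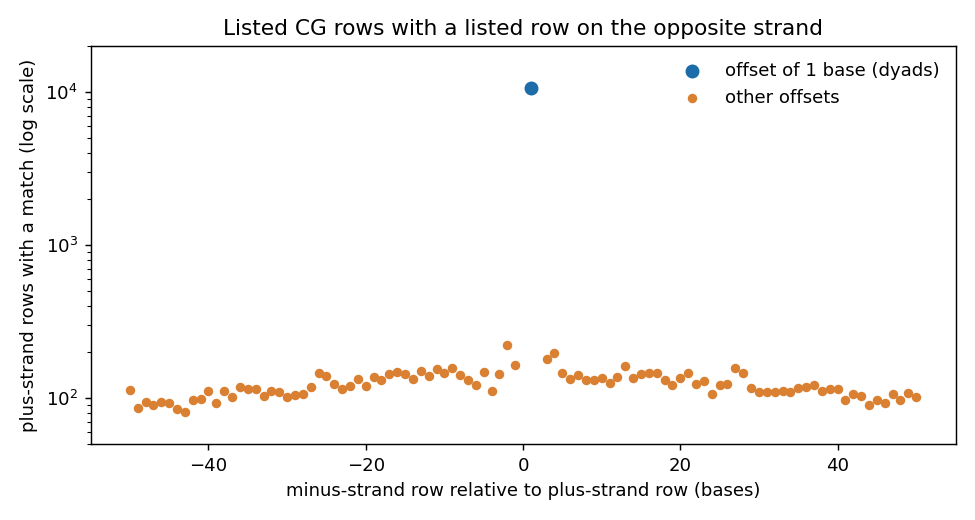
Number of plus-strand CG rows with a listed minus-strand row at each distance from -50 to 50 bases, on a log scale; the distances of 0 and 2 bases had no match and are not drawn. The point at 1 base is the 10586 dyads, for which every row has a possible partner by sequence, and the other points, which need a second CG site, run between 81 and 222.

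A dyad had another dyad as its nearest listed neighbour more often than a one-strand row did. Of the 5353 dyads with another listed CG site within 100 bases, the nearest such site was itself a dyad for 49.0% (47.7% to 50.4%), against 7.92% (7.64% to 8.20%) of the 35938 one-strand rows with a neighbour that close. The share was 48.4% for dyads inside protein-coding genes and 49.6% for dyads outside them, whereas one-strand rows had 11.1% inside genes and 6.21% outside. For scale, dyads made up 11.3% of all listed CG sites. Inside genes there were 6696 dyads and 31291 one-strand rows, and outside genes 3864 and 50794. Dyads were thus a smaller part of the sites outside genes, so the near-equal shares of dyads stand against unlike backgrounds. Per chromosome the nearest site was a dyad for 43.9% to 51.8% of dyads and for 5.94% to 9.32% of one-strand rows, so the ranges did not overlap.

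Where the nearest site of a one-strand row was another one-strand row, both were on the same strand in 93.2% of 33092 cases (92.9% to 93.4%), and between 92.5% and 93.7% on every chromosome. The spacing counts show the same order: plus-strand rows had a second plus-strand row at a given distance from 2 to 50 bases 405 times in the median (281 to 949, with the highest count at 3 bases), while minus-strand rows at distances other than that of a dyad were matched 81 to 222 times. The spacing counts take in all listed CG rows, those of dyads included, whereas the 93.2% covers only one-strand rows with a close neighbour. Of the one-strand rows, 56.2% had no other listed CG site within 100 bases.

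**Figure D2:**
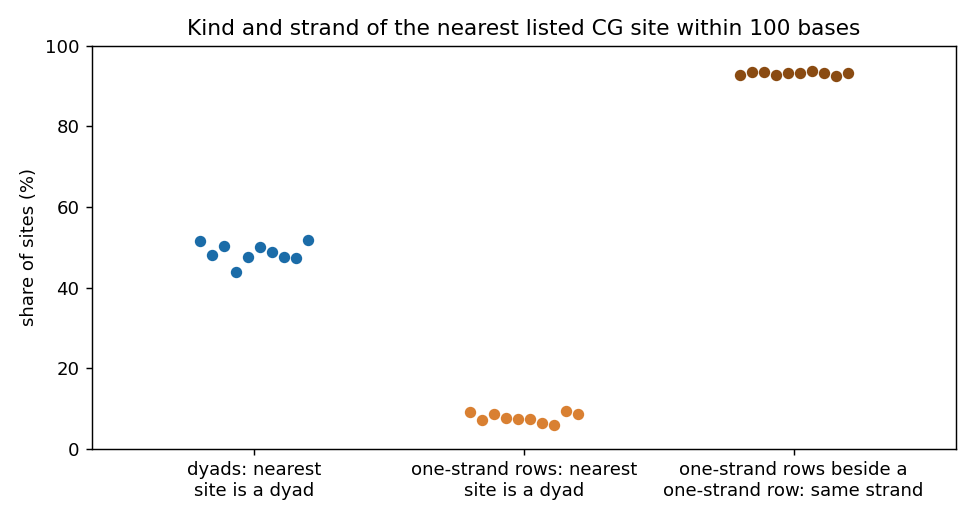
Kind and strand of the nearest listed CG site within 100 bases, with 1 point for each of the 10 chromosomes. The nearest site was a dyad for 43.9% to 51.8% of dyads and for 5.94% to 9.32% of one-strand rows, and one-strand neighbours were on the same strand in 92.5% to 93.7% of cases.

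Along the chromosomes, dyads were concentrated toward the ends. The outer zones, taken as 20% of the length at each end, held 73.9% of the 10560 dyads on chromosomes 1 to 10 (73.0% to 74.7%) and 61.2% of the one-strand rows (60.8% to 61.5%), in 40% of the length. The 4 middle segments, when each chromosome was cut into 10 equal segments, held 8.95% of dyads and 19.5% of one-strand rows. The outer share was higher for dyads on 10 of 10 chromosomes, with 65.3% for chromosome 2 and 85.1% for chromosome 9 as its limits. Inside protein-coding genes the outer zones held 78.9% of dyads and 75.9% of one-strand rows. Outside genes they held 65.2% of dyads and 52.1% of one-strand rows, so the difference was smaller inside genes.

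The number of dyads was lowest in the fifth segment, where 96 were listed (0.909% of dyads and 3.35% of one-strand rows), and highest in the last, with 2503. The share of plus-strand rows with a partner changed in the same way, with 23.7% in the first segment, 6.18% in the fifth and 25.8% in the last. This held inside and outside genes when taken apart: inside protein-coding gene spans the share was 29.9%, 17.3% and 31.5% in these segments, and outside them it was 16.8%, 4.57% and 17.7%.

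**Figure D3:**
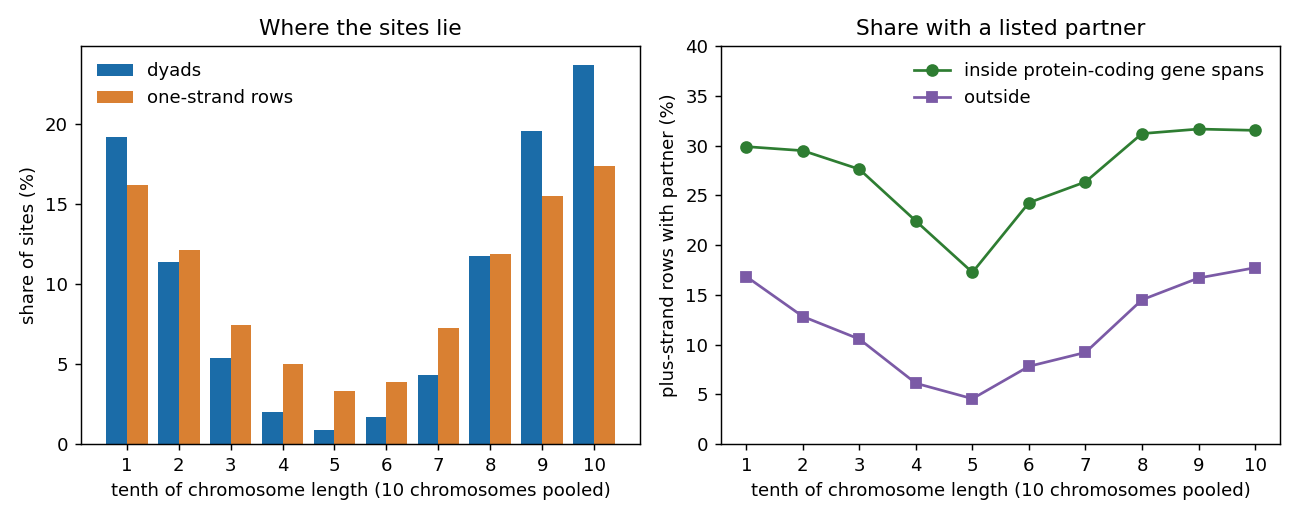
Left, share of dyads and of one-strand rows in each of 10 equal segments of chromosome length, with 10 chromosomes pooled; right, share of plus-strand rows with a listed partner, inside and outside protein-coding gene spans. Dyads make up 23.7% in the last segment and 0.909% in the fifth, and the share with a partner is lowest in the fifth segment in both curves.

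The chromosomes differed in both number and pairing. Chromosome 1 held most dyads, 2157 or 26.7 per Mb, and also had the highest share of plus-strand rows with a partner, 24.5%. Chromosome 5 held the fewest, 538 or 7.49 per Mb, and had the lowest share, 15.1%, with chromosome 8 at nearly the same value (589 dyads, 15.1%). Chromosome 3 (1630 dyads, 23.7%) and chromosome 9 (1029 dyads, 21.9%) followed chromosome 1 in share. The scaffolds that are not placed on a chromosome held 26 dyads on 11 scaffolds, and 4.94% of their 526 plus-strand rows had a partner (3.40% to 7.14%), below every chromosome.

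Dyads were unevenly spread at the scale of 1 Mb. Of 688 bins, 101 held no dyad, the median bin held 9, and the 69 bins richest in dyads (10% of bins) held 35.1% of all dyads. The 69 bins richest in one-strand rows held 22.4% of those. Dyads are fewer than one-strand rows, and counting error alone raises such a share more for a sparser count. The shares are therefore not directly comparable. The bin with most dyads was chr3:64000001-65000000 with 79 dyads, of which 64.6% were in protein-coding gene spans. Among the richest bins of each chromosome, the next were chr9:55000001-56000000 with 75 (86.7% in genes), chr1:1000001-2000000 with 72 (91.7%) and chr10:1000001-2000000 with 68 (42.6%). In these bins 31.1%, 38.1%, 36.5% and 33.7% of plus-strand rows had a partner, which is given as a description since the bins were chosen for their number of dyads.

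The richest bins of the other chromosomes held fewer dyads. They were chr2:70000001-71000000 with 57, chr8:55000001-56000000 with 48, chr4:2000001-3000000 with 47, chr6:49000001-50000000 with 47, chr7:64000001-65000000 with 40 and chr5:66000001-67000000 with 31. The midpoint of the richest bin lay in the outer zones on each of the 10 chromosomes.

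Protein-coding genes were the main place of dyads. Gene spans were taken from RefSeq's annotation of the assembly Sorghum_bicolor_NCBIv3, since no source used here names the build of the bisulfite alignment, and its match to the list was checked by moving the listed positions. Of the 10560 dyads, 63.4% (62.5% to 64.3%) lay in a protein-coding gene span, a share that dropped to 48.3% with positions moved by 2000 bases and to 30.8% with 50000 bases. Of the one-strand rows, 38.1% (37.8% to 38.5%) lay in such a span, and 25.6% after a move of 50000 bases. The spans of the 28012 genes covered 16.9% of the length.

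The share in genes was higher for dyads on 10 of 10 chromosomes. Per length of sequence, dyads were listed at 58.0 per Mb inside gene spans and at 6.80 per Mb outside, a ratio of 8.53. One-strand rows were listed at 271 and 89.4 per Mb, a ratio of 3.03. The CG sites in each place, and those covered by reads, were not counted. These densities, and those by distance to gene edges below, are therefore not rates per CG site. Of the plus-strand rows inside genes, 30.2% had a listed partner (29.6% to 30.8%), compared with 13.2% outside (12.8% to 13.6%). The shares of minus-strand rows, which count the same dyads, were 29.8% and 13.2%. Chromosome 1 had the highest share inside genes, 33.4%, and chromosome 7 the lowest, 24.0%, which was still above the highest share outside genes, 15.6% on chromosome 3. A further 4.87% of dyads and 3.89% of one-strand rows lay outside these genes but in the span of another annotated gene, such as a non-coding RNA gene or a pseudogene.

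Within genes, dyads were placed away from the edges. Their density was 20.6 per Mb in the first 250 bases inside either edge, 40.4 per Mb at 251 to 500 bases, 75.4 per Mb at 501 to 1000 bases and 92.1 per Mb at 1001 to 2000 bases. Further in it was lower again, with 53.9 per Mb at 2001 to 5000 bases and 16.9 per Mb beyond 5000 bases. Distance was taken to the nearest edge, so the deeper classes exist only in long spans, while the outermost class takes in short genes too. The classes therefore draw on different genes, and depth was not separated from gene length. The strand of a gene is not in the table used, so both edges were pooled and a promoter could not be told from the other flank.

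One-strand rows had a similar profile inside genes, from 127 per Mb at the edge to 369 per Mb at 501 to 1000 bases. The share of plus-strand rows with a partner nonetheless differed between these distance classes, with 23.9% in the outermost 250 bases, 34.2% at 1001 to 2000 bases and 23.0% beyond 5000 bases. Outside protein-coding genes, density was 24.0 dyads per Mb at 501 to 1000 bases from the nearest such gene and 15.8 per Mb in the last 500 bases before it. Over 10000 bases from any protein-coding gene it was 2.43 dyads per Mb, and 8.46% of plus-strand rows there had a partner. Only 8.32% of dyads, against 23.1% of one-strand rows, lay that far from a protein-coding gene.

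**Figure D4:**
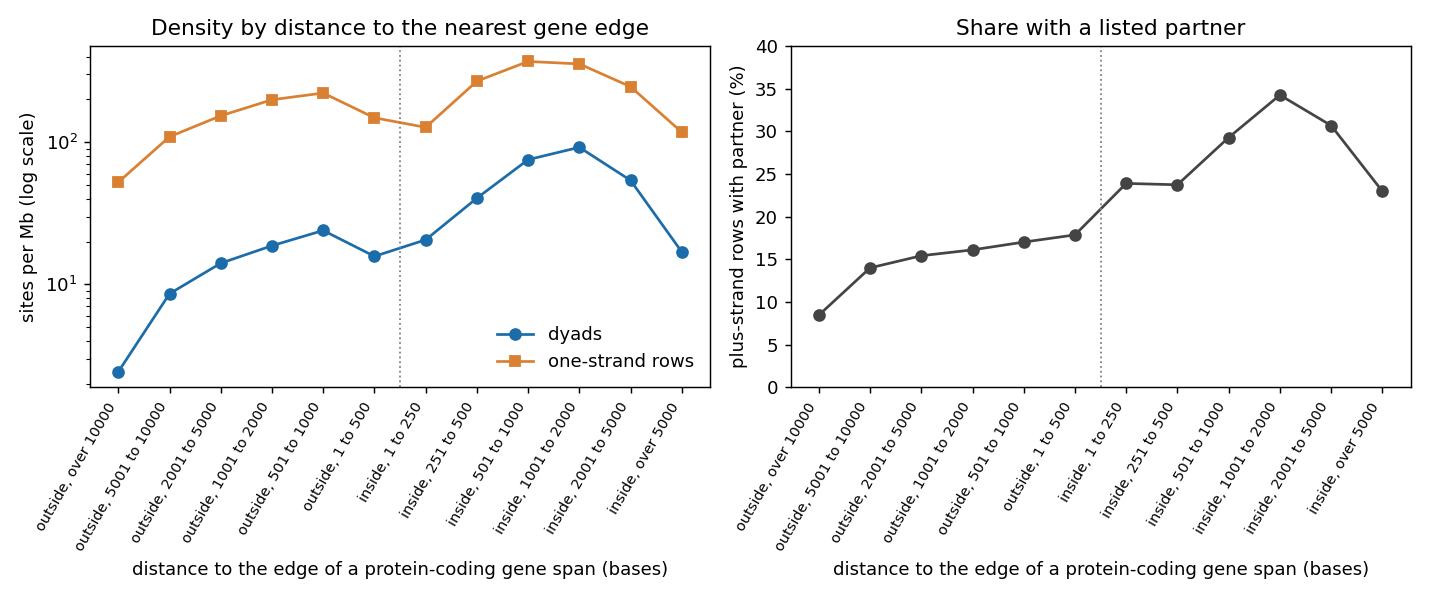
Left, dyads and one-strand rows per Mb by distance to the nearest edge of a protein-coding gene span, on a log scale; right, share of plus-strand rows with a listed partner in the same classes; the dotted line is the gene edge. Dyads peak at 92.1 per Mb at 1001 to 2000 bases inside genes, where 34.2% of plus-strand rows have a partner.

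Of the 28012 protein-coding genes on the chromosomes, 4261 held at least 1 dyad (15.2%), whereas 11855 held at least 1 listed CG cytosine (42.3%). A single dyad was the most common case, with 2834 genes, while 908 genes held 2, 398 held 3 or 4, and 121 held 5 or more. Genes with a dyad were long, with a median span of 5081 bases, compared with 4480 bases for genes with listed CG cytosines and no dyad and 3092 bases for all genes. With genes split by span into 4 near-equal groups, 0.628% of the shortest genes (up to 1753 bases) held a dyad, as did 7.90%, 20.2% and 32.2% of the genes in the longer groups. Density did not follow length throughout, since it was 7.56, 50.3, 76.4 and 58.5 dyads per Mb in the same order.

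Dyads inside and outside genes differed in their surroundings. Inside genes, 61.1% of dyads had no other listed CG site within 100 bases (59.9% to 62.3%), about the same as the 60.2% of one-strand rows. Outside genes only 28.9% of dyads stood alone in this way (27.4% to 30.3%), against 53.7% of one-strand rows (53.3% to 54.2%), and 18.7% of these dyads had 6 or more other sites within 100 bases, against 9.36% of one-strand rows.

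The share of plus-strand rows with a partner changed with local crowding outside genes but hardly inside them. Outside genes it was 7.51% for rows with no other site within 100 bases (7.09% to 7.94%), 13.8% with 1 other site, 19.8% with 3 and 26.2% with 6 to 9 (24.4% to 28.1%). It was 18.6% with 10 or more. Inside genes it lay between 30.4% and 31.7% for rows with 0 to 5 other sites, and was lower only in crowded places, with 19.2% at 6 to 9 (16.1% to 22.7%) and 15.04% at 10 or more (10.97% to 20.29%).

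**Figure D5:**
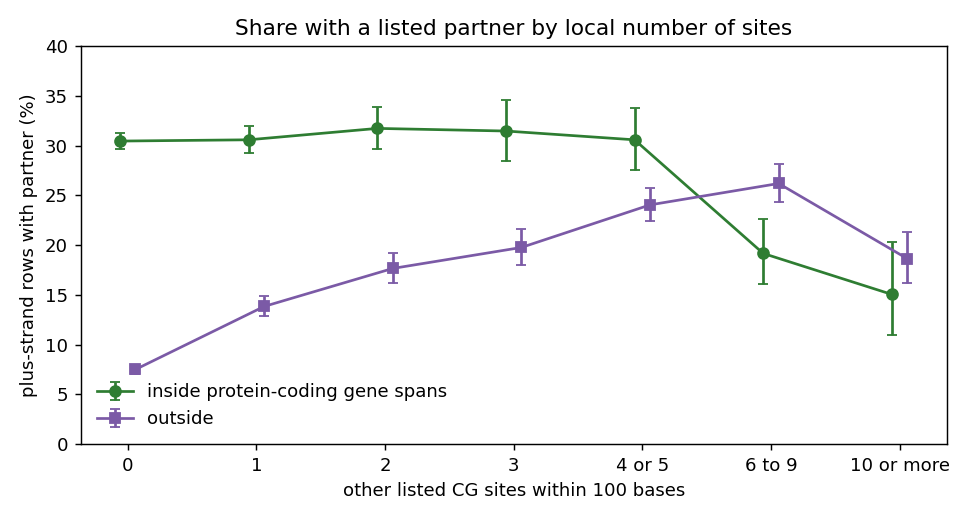
Share of plus-strand rows with a listed partner, by the number of other listed CG sites within 100 bases, inside and outside protein-coding gene spans; bars are 95% Wilson intervals, which cover counting error only. Rows with no other site had a partner in 30.4% of cases inside genes and in 7.51% outside.

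Cytosines listed in the CHG context accompanied dyads outside genes, most often those with other dyads close by. A listed CHG cytosine lay within 100 bases of 38.6% of dyads outside genes (37.1% to 40.2%) and of 17.9% of one-strand rows outside genes (17.6% to 18.3%), and the share was higher for dyads on 10 of 10 chromosomes (28.1% to 48.9%, against 14.4% to 20.1%). Inside genes it was 4.53% of dyads (4.05% to 5.05%) and 5.19% of one-strand rows (4.95% to 5.44%). Read the other way, plus-strand rows outside genes had a partner in 24.8% of cases with a CHG cytosine nearby and in 10.2% without, while inside genes these shares were 26.1% and 30.4%. Of the dyads outside genes with no other dyad within 100 bases, 20.4% had a CHG cytosine that close. One-strand rows were not split by their neighbours in this way.

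The CHH list was much thinner here. A listed CHH cytosine was near 1.53% of dyads outside genes (1.19% to 1.96%) and 1.29% of one-strand rows (1.19% to 1.39%), and near 0.538% of dyads and 0.531% of one-strand rows inside genes. The CHG and CHH lists hold 28213 and 13408 cytosines.

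The distance between neighbouring dyads covered a wide range. Of the 10565 gaps, 20.8% were at most 100 bases and 51.2% were over 10000 bases, with the rest in between and a median of 11050 bases. The smallest gap, 2 bases, occurred 108 times and a gap of 3 bases 113 times, that is, at CG sites that touch each other or have a single base between them. Dyads were listed at 15.4 per Mb and one-strand rows at 120 per Mb, and the gaps between one-strand rows had a median of 1676 bases, with 28.7% of them at most 100 bases.

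Joining dyads at most 100 bases apart gave 8384 clusters, of which 7134 were single dyads. In all, 67.4% of dyads stood alone, 15.1% were in pairs, 10.4% in clusters of 3 or 4, and 7.05% in the 111 clusters of 5 or more. The 450 clusters of 3 or more dyads had a median span of 70 bases. Of the 3992 listed CG cytosines within them, 92.8% belonged to dyads, and in 272 clusters there was no one-strand row at all; the ends of a cluster are dyads by construction, which raises this share.

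Large clusters lay in other places than single dyads. The share inside protein-coding gene spans was 72.1% for dyads standing alone, 58.4% for pairs, 41.7% in clusters of 3 or 4 and 22.8% in clusters of 5 or more. A CHG cytosine lay within 100 bases of 7.21%, 20.6%, 40.5% and 68.9% of dyads in the same order. That order was kept when the dyads were separated by place: outside genes the CHG shares were 20.4%, 42.7%, 56.8% and 77.3%, and inside genes they were 2.12%, 4.82%, 17.6% and 40.5%. Dyads of 1 cluster lie close together and can share the same CHG cytosine, so they are not independent in these shares.

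The largest cluster held 27 dyads in 442 bases at chr10:43373167-43373608, together with 1 plus-strand and 3 minus-strand rows without a partner and 18 CHG cytosines. The nearest protein-coding gene, LOC8058837, was 19716 bases away. The next was chr3:60629591-60629892, with 15 dyads, 1 unpartnered minus-strand row and 17 CHG cytosines, and lay 521 bases from LOC8059146. In both, nearly every listed CG cytosine had its partner listed.

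The next 3 clusters held 13 dyads each. The one at chr9:4047007-4047374 was 845 bases from LOC8069489 and held 22 CHG cytosines and 1 CHH cytosine. The cluster chr8:37751795-37752045 was 69404 bases from LOC110437565 with 8 CHG cytosines, and chr3:5144703-5144938 was 834 bases from LOC8075101 with 4. Of the remaining clusters among the 10 largest, chr6:32782206-32782288 packed 12 dyads into 83 bases, 557 bases from LOC8070789, and chr2:56753913-56754132 had 11 dyads and no unpartnered row, 2806 bases from LOC8065366.

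The cluster chr1:255362-255463 held 11 dyads, 851 bases from LOC110431931, and the last 2 held 10 each. At chr9:48875825-48876032 the 10 dyads and 3 minus-strand rows fell inside the span of LOC8076941, the only protein-coding gene overlapped by any of the 10 largest clusters. At chr5:16427654-16427777, 9192 bases from LOC8071611, 5 plus-strand rows and 1 minus-strand row had no partner, and no CHG cytosine was listed, unlike in the other 9 clusters. Among the 10 clusters, those near LOC8059146, LOC8069489, LOC8075101, LOC8070789 and LOC110431931 were between 521 and 851 bases from a gene.

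Of the 15 genes with most dyads in the span or within 1000 bases of it, 12 held at least 10 dyads in the span itself. The other 3, LOC8059146, LOC8070789 and LOC110431931, held 1 dyad in the span, and their counts of 16, 13 and 12 came from a flanking cluster named above. The gene table gives no product for these genes, so no role is given for them here.

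LOC8063366 on chromosome 1 held most dyads, 22 in a span of 9180 bases, and the dyads lay between positions 8765030 and 8772653. It also held 24 plus-strand and 12 minus-strand rows without a partner, so that 37.9% of its 58 listed CG sites were dyads, and 175 CHG cytosines. LOC8082500 on chromosome 3 had 20 dyads, 13 of them in its span of 3090 bases, with 35 CHG cytosines in the span. LOC8057226 on chromosome 1 had 16 dyads, with 5 plus-strand and 21 minus-strand rows without a partner and 42 CHG cytosines. Each of these genes mixed paired and unpaired cytosines, with 37.9% to 38.2% of sites as dyads.

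Among the 12 genes, the share of listed CG sites that were dyads was highest in LOC8085435 on chromosome 3 and LOC8064160 on chromosome 9. LOC8085435 held 11 dyads among 14 listed sites in its span (78.6%), LOC8064160 held 13 among 17 (76.5%), and neither span had a CHG cytosine. LOC8076941, which holds a large cluster named above, followed with 10 dyads among 16 sites (62.5%). LOC8061782 on chromosome 9 held 14 dyads among 40 sites with 13 unpaired rows on each strand, and LOC8062690 on chromosome 5 had the highest density of the 15 genes, 5.19 dyads per kb, and the lowest share of dyads of the 12, with 11 among 43 sites (25.6%). LOC8061322 on chromosome 9 held 12 dyads and 205 CHG cytosines. LOC8064492 on chromosome 1, LOC8070709 on chromosome 10 and LOC8067485 on chromosome 9 held 12, 12 and 11 dyads and no CHG cytosine. Across the 15 genes, 7 had a CHG cytosine in the span and 8 had none.

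At the level of whole genes, the balance of listed cytosines between the strands varied. Among the 741 protein-coding genes with at least 10 listed CG cytosines, 343 had between 40% and 60% of them on the plus strand and 98 had over 80% on a single strand, while 94 had no dyad at all. Counting error alone can unbalance a gene with few listed cytosines, and neighbouring cytosines share reads. No expected share was computed, so these counts are a description. In the median gene of the 741, 22.2% of listed CG sites were dyads. LOC8065328 on chromosome 9, chosen after its values were seen as one of the most uneven genes with a dyad, held 3 dyads with 1 unpaired plus-strand row and 46 unpaired minus-strand rows. LOC8067483, also on chromosome 9 and chosen in the same way, held 1 dyad with 26 unpaired plus-strand rows and 2 unpaired minus-strand rows. Over the 11855 genes with a listed CG cytosine, the counts on the plus strand and on the minus strand, dyads included in both, had a Pearson r of 0.45 across genes, and across 6840 bins of 100 kb it was 0.73. Genes without a listed CG cytosine were left out, whereas the bins cover the whole length, so the r values are not directly comparable. Genes and bins are not independent replicates and share the same 4 libraries, so these values are a description.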

How the data were processed

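Genomic DNA of BTx623 roots (2 LP and 2 SP bisulfite libraries) was trimmed with Trim Galore, aligned and extracted with Bismark and compared with methylKit by the authors. The labels and methods used here name no version, genome build or coverage minimum for these steps. The deposited lists give chromosome, position and strand of each cytosine listed as differential, from all libraries together. They also hold the authors' own comparison (a methylation difference, a p-value and a q-value), which was not used, so agreement of the strands here means that both cytosines are listed, not that they changed alike. Depth per library is unknown. RNA-seq files were not used.

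Dyads were matched at 1 base with Python 3.11.15 (pandas 2.3.3, numpy 2.4.6, scipy 1.17.1), tested on simulated lists with known answers. Chromosome length was taken as the largest listed position. Gene spans came from RefSeq's table of Sorghum_bicolor_NCBIv3, matched by chromosome name and checked by shifting positions; the intended check against promoter sequence was not run, as no sequence was used here. The table holds no strand or product names, so both flanks of 1000 bases were counted and gene lists by product were not applied. Neighbours and clusters used 100 bases. Named were the 10 clusters and 15 genes with most dyads and the richest 1 Mb bin of each chromosome. The members, lists and settings were chosen with earlier results of these data known.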

Additional observations from a re-analysis of the deposited data

How the results depend on the processing

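No paired analysis was possible because the list has no values for single libraries, and for the same reason no replicate could be left out. Counting each listed cytosine on its own gives 21172 in place of 10586 dyads and left the shares within their counting intervals. A minus-strand row 1 base before a plus-strand row, which only the sequence CGCG allows and which is therefore no background for a partner, was listed for 0.315% of plus-strand rows. The share with a partner was 23.1% among rows with another listed CG site within 100 bases, against 20.4% overall. Dyads in clusters of 3 or more were 13.6%, 21.5% and 25.1% at gaps of 50, 200 and 500 bases, against 17.5% at 100 bases. Outer zones of 10% and 25% at each end held 42.9% and 83.6% of dyads (33.5% and 71.9% of one-strand rows). The richest 10% of bins held 37.3% of dyads with bins of 500 kb and 34.1% with bins of 2 Mb. Genes with flanks of 500, 1000 and 2000 bases held 67.1%, 71.8% and 77.9% of dyads (42.6%, 48.2% and 56.5% of one-strand rows). A CHG cytosine lay within 50 and 500 bases of 14.7% and 20.2% of dyads, against 17.0% at 100 bases, and a CHH cytosine of 0.521% and 2.36%, against 0.900%. Each setting widens or narrows its own window, and with each of them dyads stayed above one-strand rows in the outer zones, in genes and, outside genes, near CHG cytosines. The share near a CHH cytosine was lower for dyads over all places at 50, 100 and 500 bases. Taken apart by place, its direction varied with the window. At 100 bases it was higher for dyads inside genes (0.538% against 0.531%) and outside them (1.53% against 1.29%), with overlapping intervals. Outside genes it was lower for dyads at 50 bases (0.802% against 0.807%) and 500 bases (3.83% against 3.89%). Inside genes it was higher for dyads at 50 bases (0.358% against 0.320%) and lower at 500 bases (1.51% against 1.74%). The depth, the build and the criterion of the list limit what can be read from these counts: the number of reads on each strand is unknown, so a missing partner does not show that the other strand was unchanged.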
